A study of Drosophila melanogaster with 3 samples.

Results

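A set of 7 genes of Drosophila melanogaster lay at or next to the strongest peaks of the heterochromatin protein Su(var)3-7 that lie away from the start sites of protein-coding genes. They are the protein-coding genes CG11050, Lk6, CG9663, CG32772, tara and CG13323 and the non-coding gene lncRNA:CR31840, 7 of 18358 annotated genes. They were chosen by measured values: each holds, or has the nearest protein-coding start site to, 1 of the 10 strongest thresholded peaks with a summit over 500 bp from a protein-coding start site (1966 of 4055 thresholded summits are that far away). That peak is called the lead peak of the gene here, and its strength is therefore a description and was not tested. Around each gene all listed summits in the gene body and 15 kb on either side were read, which gave 31 thresholded summits in the 7 windows.

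Su(var)3-7 is a zinc-finger protein that binds heterochromatin protein 1 and is known from fly nuclei for its place in pericentric chromatin, where its dose changes the silencing of genes moved next to heterochromatin. Chromatin immunoprecipitation followed by sequencing (ChIP-seq) recovers the DNA to which a protein is bound or cross-linked, and a peak caller lists where that DNA piles up. Peaks far from start sites are commonly read as candidate regulatory elements, although the method does not show what a bound region does.

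The samples were 3 biological replicates of 1 group. They were whole embryos of both sexes pooled, 0 to 24 h old, from a transgenic strain that stably expresses Su(var)3-7 fused at its C terminus to GFP; an anti-GFP antibody was used on sonicated chromatin. Every replicate carries the transgene, all come from 1 strain, and the labels do not say whether the flies also keep an untagged protein. Because whole embryos were used, binding in fewer cells and weaker binding per cell cannot be told apart. No reads were among the files, only peak lists, and sequencing depth is therefore unknown: each replicate list and the pooled list hold 30000 regions, and the thresholded list holds 4055. Signal here means the seventh column of the authors' lists, whose scale no source names; it is given as deposited for the pooled data, and divided by the median of the list (19.2, 25.5 and 18.2 in replicates 1, 2 and 3) for each replicate. With 1 group there is no comparison between conditions and no p-value.

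The DNA under 6 of the 7 lead summits is shown here because it is the sequence at the centre of the strongest peaks; 1 is not printed. Each line gives 100 bp on either side of the summit (201 bases) from the forward strand of the RefSeq genome of build dm6. Capitals mark GCCACA or its reverse complement TGTGGC, a 6-letter word that 5 of the 7 windows share and that was picked after the sequences were compared.
CG11050, chr2L:6612628-6612828: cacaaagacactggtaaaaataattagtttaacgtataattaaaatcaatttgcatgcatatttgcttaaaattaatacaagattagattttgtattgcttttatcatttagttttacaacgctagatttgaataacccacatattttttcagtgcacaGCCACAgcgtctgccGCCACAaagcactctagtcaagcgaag
Lk6, chr3R:11760948-11761148: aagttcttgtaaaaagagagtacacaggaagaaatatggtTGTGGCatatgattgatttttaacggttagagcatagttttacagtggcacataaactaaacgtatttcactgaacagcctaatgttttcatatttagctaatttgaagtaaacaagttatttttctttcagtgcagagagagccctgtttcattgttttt
CG9663, chr2L:3302073-3302273: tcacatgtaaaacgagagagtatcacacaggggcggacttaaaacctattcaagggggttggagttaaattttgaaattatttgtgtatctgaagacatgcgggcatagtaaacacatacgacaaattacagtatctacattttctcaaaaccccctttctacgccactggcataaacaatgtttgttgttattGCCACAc
CG32772, chrX:4910276-4910476: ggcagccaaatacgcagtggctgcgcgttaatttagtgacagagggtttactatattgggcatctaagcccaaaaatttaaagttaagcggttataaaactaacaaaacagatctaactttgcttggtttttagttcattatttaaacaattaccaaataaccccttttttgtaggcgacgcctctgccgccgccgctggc
tara, chr3R:16222382-16222582: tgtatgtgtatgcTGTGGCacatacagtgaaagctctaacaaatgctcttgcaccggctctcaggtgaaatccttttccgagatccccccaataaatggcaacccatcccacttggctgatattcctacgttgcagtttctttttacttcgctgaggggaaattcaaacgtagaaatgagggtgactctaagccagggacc
lncRNA:CR31840, chr2L:14023983-14024183: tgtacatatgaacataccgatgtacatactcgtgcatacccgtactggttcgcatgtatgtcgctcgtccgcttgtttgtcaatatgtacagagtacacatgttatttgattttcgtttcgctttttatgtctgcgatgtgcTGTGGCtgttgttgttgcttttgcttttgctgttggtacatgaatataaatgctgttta

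These windows were single-copy or nearly so. At a BLAST e-value of 1e-5, none of the sequences from CG11050, Lk6, CG9663, CG32772, tara and CG13323 had another match in dm6. The lncRNA:CR31840 window had 13 others, the longest 74 bp at 78.4% identity, and none of at least 50 bp at 90%. Annotated mobile elements lay 5812 bp away from the CG13323 summit and 32672 to 167616 bp from the other 6. Repeat-masked letters made up 18.9% to 27.4% of 6 windows and 0% of the tara window, against a median of 15.9% in the 1959 other distal windows.

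CG11050 held the strongest lead peak. The gene (FBgn0031836, 2L, 6611011 to 6617117, forward strand) has 3 transcripts with 3 start sites, and its role is not described here because none was known with certainty. The peak (2L, 6612486 to 6612929) had a pooled signal of 2690, rank 4 of 4055. It stood at 40.9, 46.7 and 39.8 times the list median in replicates 1, 2 and 3 (mean 42.5 ± 3.69, SD, n = 3), and ranked 3, 4 and 4 of 30000. All 3 replicates were thus within a range of 39.8 to 46.7, with replicate 2 highest. The summit lay in the second intron of the gene, which is only 140 bp long (6612641 to 6612780), so that 68.5% of the 444 bp peak covers exon. Its distance to the nearest of the 3 start sites was 1041 bp, downstream in the direction of the gene.

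Lk6, which encodes a protein kinase of the MNK family that phosphorylates the translation initiation factor eIF4E, came second. The gene (FBgn0017581, 3R, 11750931 to 11764457, reverse strand) has 2 start sites, and the lead peak (3R, 11760820 to 11761335) sat between them. Its summit was 3409 bp downstream of the outer start and 969 bp upstream of the inner one, in the first intron of the longer transcript. The pooled signal was 2455 (rank 6), and the replicates gave 34.4, 43.8 and 37.4 times the list median (mean 38.5 ± 4.80, SD, n = 3). The ranges of CG11050 and Lk6 overlap over replicates, yet CG11050 was above Lk6 within each replicate.

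CG9663 encodes a transporter of the ABCG family. Its lead peak (2L, 3301938 to 3302428) had a pooled signal of 1909 (rank 14) and stood at 26.8, 32.2 and 31.04 times the list median (mean 30.03 ± 2.85, SD, n = 3). The summit was 957 bp downstream of the only start site of the gene (FBgn0031516, 2L, 3294926 to 3303130, reverse strand), in the first of 7 introns, which is 1292 bp long. No replicate value of CG9663 reached the lowest one of Lk6, 34.4.

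CG32772, a gene for a C2H2 zinc-finger protein (FBgn0052772, X, 4909102 to 4915161, forward strand), also has its lead peak between 2 start sites. The peak (X, 4910191 to 4910587) had a pooled signal of 1722 (rank 18) and stood at 25.9, 29.7 and 26.1 times the list median (mean 27.2 ± 2.17, SD, n = 3). Its summit lay 1274 bp downstream of the first start and 2005 bp upstream of the second, in an intron of 1054 bp. This lead had the smallest relative spread of the 7, a coefficient of variation of 7.95% over replicates.

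The lead peak of tara lay outside the gene. tara (taranis) encodes a nuclear protein linked to trithorax group function, to the keeping of cell fate in regenerating wing discs and to sleep (FBgn0040071, 3R, 16225651 to 16260329, forward strand). The peak (3R, 16222262 to 16222704) was 3169 bp upstream of the first start site, with a pooled signal of 1782 (rank 15), and 913 bp from the start of the non-coding gene lncRNA:CR45643. Replicates gave 22.2, 32.7 and 28.9 times the list median (mean 27.9 ± 5.28, SD, n = 3), replicate 1 being lowest.

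CG13323, whose role is not described here, is the most distant of the 7. Its lead peak (2R, 13035132 to 13035541) was intergenic, 11957 bp downstream of the start and 9396 bp from the nearest annotated exon, beyond the 3' end of the gene (FBgn0033788, 2R, 13044695 to 13047256, reverse strand). The pooled signal was 1723 (rank 17), with replicates at 25.7, 32.0 and 22.8 times the list median (mean 26.8 ± 4.69, SD, n = 3). The name CG13323 only marks the nearest protein-coding start site, and nothing in these lists ties the peak to that gene.

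The lead peak of lncRNA:CR31840 was not distal once non-coding genes are counted. The gene (FBgn0051840, 2L, 14023722 to 14024099, reverse strand) is 378 bp long, and the summit of the peak (2L, 14023901 to 14024322) lay 16 bp inside its own annotated start. It was far only from protein-coding starts, the nearest being that of hll at 2918 bp. Of the 1966 thresholded distal summits, 5.49% lay within 500 bp of the start of a non-coding gene. The pooled signal was 1465 (rank 27), and the replicates gave 18.4, 29.4 and 20.4 times the list median (mean 22.7 ± 5.88, SD, n = 3). Replicate 2 stood well above the other two, and the coefficient of variation, 25.9%, was the highest of the 7.

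**Figure D1:**
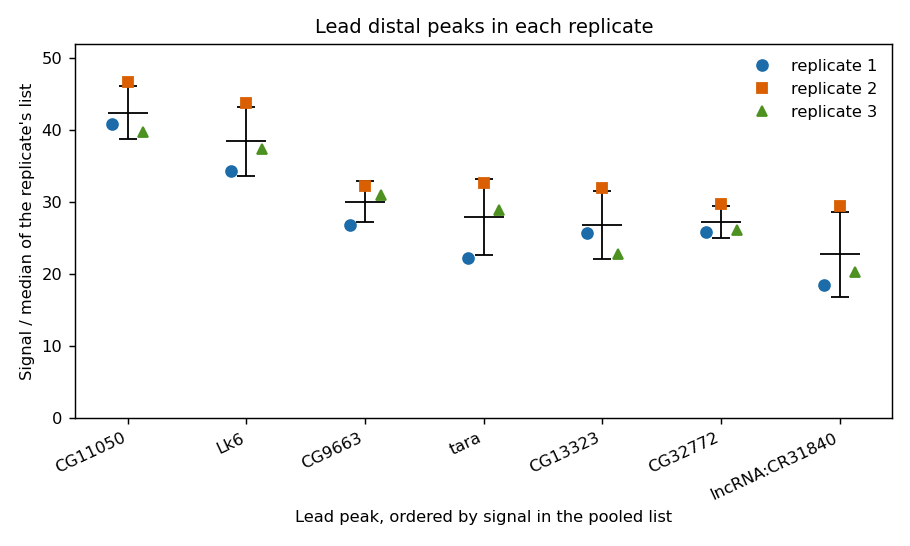
Signal of each lead peak divided by the median of the replicate's list (vertical axis, no unit) for the 7 genes (horizontal axis); symbols are the 3 replicates, the bar is their mean and the whiskers 1 SD. CG11050 and Lk6 lie at 34.4 or above in every replicate, and the other 5 between 18.4 and 32.7.

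The order of the 7 was the same at its ends in every replicate and changed in the middle. Within each of the 3 replicates CG11050 came first, Lk6 second and lncRNA:CR31840 last. The 4 genes between them changed places: CG9663 followed Lk6 in replicates 1 and 3 but stood behind tara in replicate 2, and tara was last but 1 in replicate 1. CG9663 was above CG32772 and CG13323 in each replicate, by as little as 32.2 against 32.0 for CG13323 in replicate 2, and the other 4 pairs among these genes changed order between replicates. The replicate ranges of all 4 genes overlap (22.2 to 32.7 in all). Among the distal regions of its own list, CG11050 ranked 2 in every replicate, Lk6 ranked 4, 3 and 3, and lncRNA:CR31840 ranked 15, 9 and 12.

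Replicate 2 gave the highest relative value for all 7 leads, and that depended on the divisor. Divided by the median of the strongest 4055 regions of the same replicate, the CG11050 lead was at 14.1, 14.4 and 14.2, and replicate 2 was highest for 4 of the 7 genes. On that scale the CG32772 lead was at 8.94, 9.15 and 9.34, the Lk6 lead at 11.9, 13.5 and 13.4, and the tara lead at 7.68, 10.05 and 10.3. On this scale the replicates lay close together for CG11050 and CG32772, while tara was lower in replicate 1 on both scales.

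Lead summits lay close together in the 3 replicates. The 3 replicate summits spanned 13 to 17 bp at 6 of the leads and 35 bp at tara (median 16 bp), against a median of 49 bp over the 1929 thresholded distal summits listed in all 3 replicates. As the leads were chosen for strength, this is a description. The sequence windows are centred on the pooled summit, which lay outside the replicate span at CG11050 and CG13323. There the replicate summits were 12 to 25 bp to its left and 27 to 43 bp to its right, respectively. The widths of the 7 peaks were 397 to 516 bp; 69.7% of the thresholded list has a single width of 424 bp, so width carries little information.

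**Figure D2:**
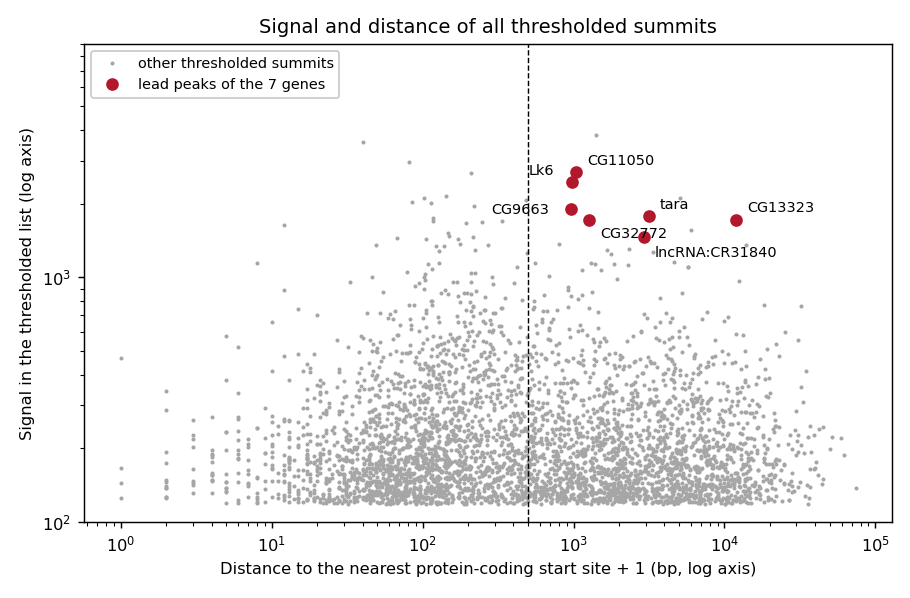
Signal in the thresholded list (vertical log axis) against the distance of the summit to the nearest protein-coding start site plus 1 bp (horizontal log axis) for all 4055 thresholded summits; red points are the 7 leads and the dashed line is at 500 bp. The leads run from 957 bp (CG9663) to 11957 bp (CG13323) and from 1465 to 2690 in signal.

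The choice of the 7 has near neighbours on both sides. The weakest lead, lncRNA:CR31840, is the tenth distal peak by signal (1465), and the next 2 were an intronic peak in Adf1, a transcription factor gene, at 1373 (2R, 6662852 to 6663276), and 1 inside osa, which encodes a subunit of the Brahma chromatin-remodelling complex, at 1361 (3R, 17704231 to 17704598). Of the 10 strongest distal peaks 3 are not among the 7: in ush (3827), in lncRNA:Vinr (2106) and in lncRNA:CR44619 (1556). The 7 are thus not the 7 strongest distal peaks, and the next ones below them are close in signal.

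The windows differed widely in what else they held. The 31 thresholded summits were 15 near tara, 4 near Lk6, 3 each near CG11050 and lncRNA:CR31840, and 2 each near CG9663, CG32772 and CG13323. Among all 13968 protein-coding genes, 68.3% had at least 1 thresholded summit in such a window, 44.4% at least 2 and 25.9% at least 3. Counts of 2 are therefore common for a fly gene, and the lead itself supplies 1 of them.

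tara stood apart in number. Only 2 of 13968 protein-coding genes (0.0143%) had 15 or more summits in their window: tara with 15 and ush, named after its value was seen, with 16. The tara window had 2.32 thresholded summits per 10 kb, the other 6 windows 0.523 to 0.988, and the chromosome arms as a whole 0.303. Each window was chosen for its lead, which is 1 of the summits counted, so the choice itself raises these densities above that of the arms. tara is 34679 bp long, and among the 379 other protein-coding genes of 26009 to 43348 bp the median was 2 summits and the highest 13.

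**Figure D3:**
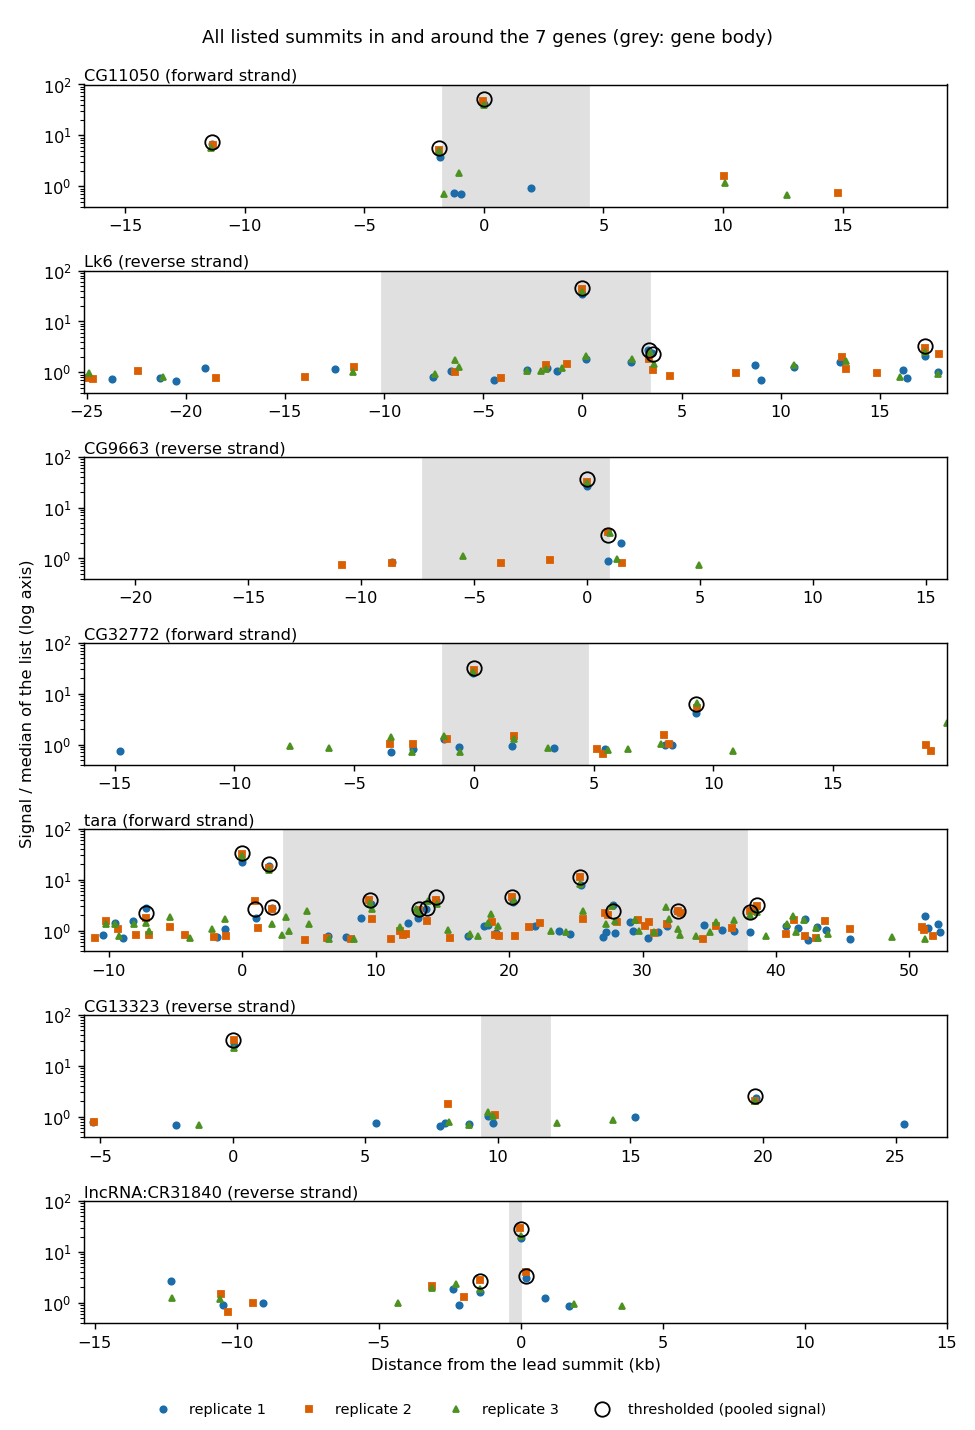
Every listed summit in the 7 windows: signal divided by the list median (vertical log axis) against distance from the lead summit in kb (horizontal axis), with filled symbols for replicates, open circles for thresholded summits at their pooled signal, and the gene body in grey. A single high summit stands over a low field in 6 windows, while the tara window holds 15 circles spread from before the first start to past the end of the gene.

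The tara summits ran from very strong to the weakest of the list. Upstream of the gene the lead was followed by a second strong peak, 1145 bp before the first start site (3R, 16224330 to 16224674), with a pooled signal of 1071, rank 60. That peak stood at 18.5, 16.8 and 15.8 times the list median (mean 17.04 ± 1.36, SD, n = 3). The replicates were closer together here than at the lead. In replicate 1 the lead was only 1.20 times this second peak, in replicates 2 and 3 it was 1.94 and 1.83 times. Inside the gene the strongest was an intronic peak (3R, 16247681 to 16247933) with a signal of 604, rank 191, at 7.86, 11.5 and 8.18 times the list median (mean 9.19 ± 2.04, SD, n = 3). The other 12 had pooled signals of 119 to 238, where the median of the thresholded list was 181. For some of these 12 the nearest protein-coding start site was that of another gene. In all, 8 of the 15 lay in the gene body, all of them intronic, 14 were distal, and the weakest, at 118.8, was the last of the 4055 on the thresholded list.

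In the other 6 windows the lead was at least 5.22 times any other thresholded summit. The lead of Lk6 was 14.1 times the next thresholded summit, that of CG13323 12.7 times and that of CG9663 12.6 times. The ratio was 8.25 for lncRNA:CR31840, 6.85 for CG11050 and 5.22 for CG32772, against 1.66 for tara. At lncRNA:CR31840 the next summit lay in the same listed interval as the lead, and the next one outside it had a signal of 141. Within each replicate, and for summits more than 1 kb away, the lead of Lk6 was 12.7, 14.4 and 14.9 times the next one, and that of CG32772 6.26, 5.58 and 3.91 times. The second peak near CG32772 was intronic in Hgsnat, named after a human lysosomal acetyltransferase (X, 4919568 to 4919778, signal 330), 782 bp from its start.

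Several of the genes carried a weaker peak at their own start as well. Of the 6 protein-coding genes, 4 had a thresholded summit within 500 bp of an own start site: CG11050, Lk6, CG9663 and tara. Of all protein-coding genes 18.4% had one, but of the 848 with a distal thresholded summit in the gene body 42.6% had one, and CG11050, Lk6, CG9663 and tara are 4 of the 5 members with such a summit (CG13323 has none in its body). No test was made. The CG11050 start peak (2L, 6610642 to 6611065) was 157 bp upstream of the first start, with a signal of 294 (rank 883) and 3.77, 5.22 and 5.05 times the list median in the replicates. At tara it was the second, internal start that had one (signal 238, and 3.63, 4.47 and 3.82 times the list median). The first tara start had no thresholded or pooled summit within 500 bp. Among the replicates only replicate 3 listed a region at that start, at 1.84 times its median and rank 4349.

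The start peaks of Lk6 and CG9663 were weak. Lk6 had 2 thresholded summits of signal 144 and 121 at its outer start, and none at the inner start, which the lead precedes. Replicates 1 and 3 ranked the stronger one 2294 and 2480, and replicate 2 ranked it 5046, outside its strongest 4055. At the CG9663 start the thresholded summit had a signal of 152; replicates 2 and 3 gave 3.37 and 3.15 times the list median, but replicate 1 only 0.885 times, below the median of its list. The 2 starts of CG32772 had pooled regions of 88.7 and 80.2 that did not pass the threshold. At the CG13323 start the pooled list had nothing within 500 bp, and among the replicates only replicate 3 listed a region, at 0.743 times its median. The lncRNA:CR31840 start carried its lead peak; 5.69% of 3304 non-coding RNA genes had a thresholded summit at their start.

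Of 26 other protein-coding genes with a start site in the 7 windows, 2 had a thresholded summit within 500 bp of it, against 18.4% of all protein-coding genes, most of which thus lack one too. One was Dpp10, named after the dipeptidyl peptidase family and beside CG11050 (2L, 6601283 to 6601513, signal 393, mean 6.25 ± 0.648 times the list median, SD, n = 3). The other was l(3)neo38, a zinc-finger gene beside Lk6, with a summit 18 bp from its start (3R, 11778122 to 11778545, signal 174, mean 2.54 ± 0.483, SD, n = 3). No neighbour of the other 5 genes had one.

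Replicate support was complete for the leads and partial for the weaker summits. Each replicate held all 7 leads in its strongest 4055 regions, the lowest rank being 39, for lncRNA:CR31840 in replicate 1. Of the 31 thresholded summits 19 had such a region within 200 bp in all 3 replicates, 9 in 2 and 3 in 1. Support in all 3 was found for 60.6% of all thresholded summits and 58.1% of the distal ones. All 7 leads are among the 19. Because the leads were chosen for strength in the pooled data, the 19 of 31 cannot be set fairly against these shares. The 19 include 2 weaker summits about 200 bp from a stronger one, near tara (16224710) and lncRNA:CR31840 (14024284), which in replicate 3 were matched to the stronger peak's summit. Replicate 3 did list a summit of its own 8 bp from the weaker tara one, at 1.36 times the list median and rank 7975, outside its strongest 4055, and none for the weaker lncRNA:CR31840 summit. Both summits at the outer Lk6 start met the same summit in replicate 3. Of the 15 near tara, 8 had full support, 5 had it in 2 replicates and 2 in 1.

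**Figure D4:**
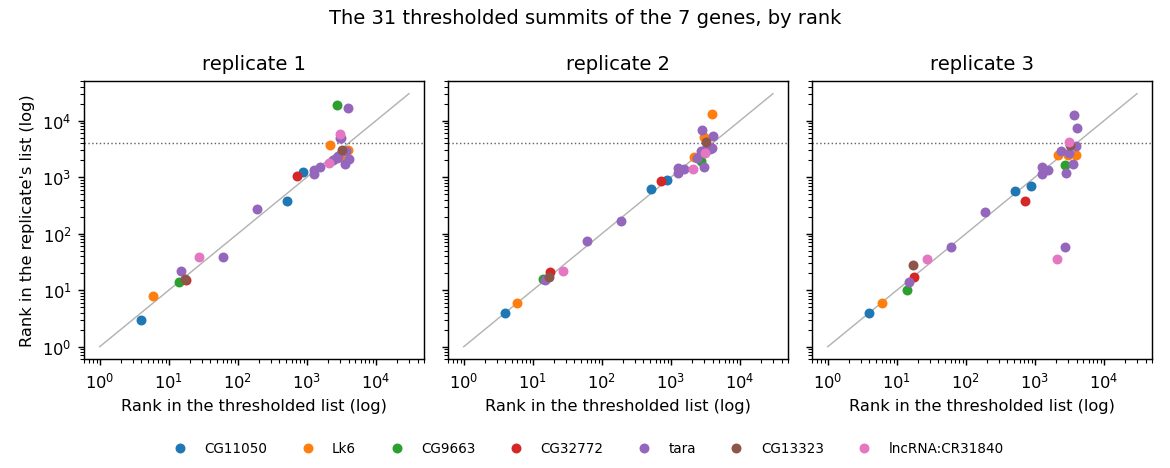
Rank of the region that stands for each of the 31 thresholded summits in a replicate (vertical log axis; strongest region within 200 bp) against its rank in the thresholded list (horizontal log axis), 1 panel a replicate, coloured by gene; the dotted line is rank 4055 and the grey line equality. The leads follow the line, the weak summits scatter around rank 4055, and the 2 points far below the line in replicate 3 are the weaker summits of tara and lncRNA:CR31840 that were matched to a stronger neighbour.

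Of the 7 leads, 4 were intronic, 2 intergenic and 1 exonic, against 65.9%, 25.9% and 8.14% of all thresholded distal summits. Base composition dipped at most of the lead summits. Within 50 bp of the summit the CG11050 lead had 24.8% G+C, against 57.5% in the sequence 100 to 200 bp away on both sides, the deepest dip of the 7; only 0.153% of the 1959 other distal summits had a deeper one. The dip there falls on the short intron between 2 exons. Lk6 had 30.7% against 52%, CG9663 33.7% against 51%, CG13323 37.6% against 54%, CG32772 27.7% against 42.5% and lncRNA:CR31840 42.6% against 53.5%. The tara lead went the other way, with 48.5% against 46.5%. Less G+C at the summit than beside it was the rule for the other distal summits too, 71.6% of which had it (median difference -6.96 percentage points), whereas start-site summits had it in 49.3% (0.114). Whether base composition affects the measured signal was not tested.

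**Figure D5:**
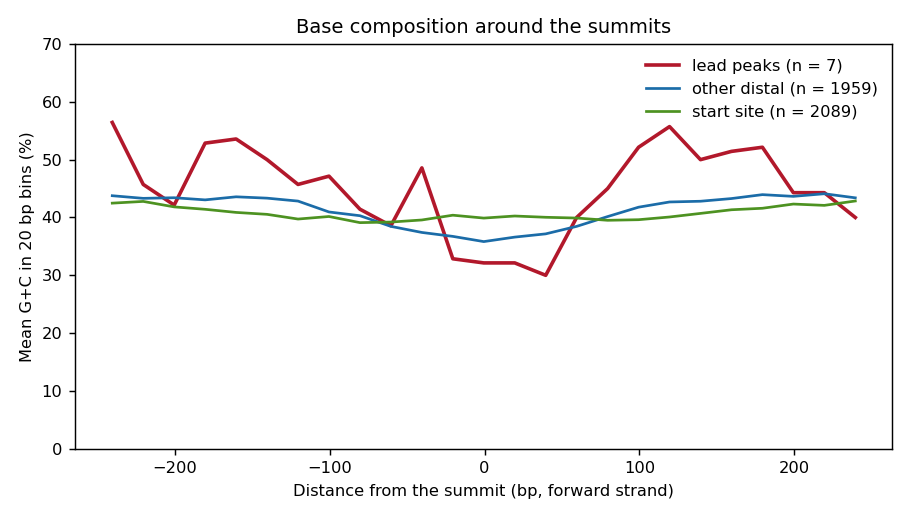
Mean G+C in 20 bp bins (vertical axis, percent) against distance from the summit (horizontal axis, bp on the forward strand) for the 7 leads, the 1959 other distal and the 2089 start-site summits. The line of the 7 leads is lowest, at 30%, in the bin that begins 30 bp to the right of the summit, deeper than that of the other distal summits, and the start-site line is nearly flat.

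Of 12 motifs searched on both strands within 100 bp of the summit, Lk6 and CG9663 had GAGAGAG, the GAGA factor motif (3.98% of the other distal summits), CG9663 had GGGCGG, a GC box (4.44%), and tara had AAATGGC, the core of the Pho site (3.62%). CG11050, CG32772, CG13323 and lncRNA:CR31840 had none of the 12. The mean was 0.571 motifs a lead against 0.657 a peak over the other distal summits, so the number of motifs was near the background. The other 9 motifs were in no lead. Among the other distal summits the DRE (TATCGATA) was found in 0.408% and Motif 1, bound by M1BP (GGTCACACT), in 0.255%. The CA repeat (CACACACA) was found in 4.39%, the Zelda motif (CAGGTAG) in 1.12%, the CTCF core (AGNNGGCGC) in 4.65% and the E-box (CAGCTG) in 7.3%. The GATA motif (AGATAAG) was found in 3.06%, the Zeste motif (TGAGTG) in 10.4% and the BEAF-32 core (CGATA, which lies inside the DRE) in 22.1%. At start-site summits DRE reached 9.05% and the BEAF-32 core 40.5%.

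Of 6 words of 6 letters found in at least 5 of the 7 windows, 3 consist of A and T alone. AAATAA was in 6 of the 7 windows and in 42.8% of the other distal ones. Of the words in 5 windows, TAAAAA was found in 40.1% of the other distal ones and AATAAC in 17.2%. Among the words in at least 5 windows, the least common elsewhere was GCCACA, in the windows of CG11050, Lk6, CG9663, tara and lncRNA:CR31840, against 10% of the other distal and 10.9% of the start-site windows. Its positions were not alike: in CG11050 it began 59 and 74 bp to the right of the summit, in lncRNA:CR31840 42 bp to the right, in CG9663 94 bp to the right, and in Lk6 60 bp and in tara 87 bp to the left. Within 50 bp of the summit 1 lead had it. All words of 6 letters were compared and this one was picked from the result, so the excess is a description of these 7 sequences.

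Likeness was measured on the signal by which the leads were chosen, and is given as a description. Among 1907 thresholded distal summits outside the 7 windows, the nearest in log2 relative signal was the lncRNA:Vinr peak for CG11050, Lk6 and CG9663 (Euclidean distances 0.62, 0.46 and 0.46 over 3 replicates), and the lncRNA:CR44619 peak for CG32772, tara and CG13323 (0.25, 0.42 and 0.30). For lncRNA:CR31840 it was the peak inside osa, which also lies in an exon of lncRNA:CR46035 (0.31). The nearest peak need not be of the same height: the lncRNA:Vinr peak stood at 35.5, 36.5 and 28.7 times the list median, below CG11050 in every replicate. The lncRNA:Vinr and lncRNA:CR44619 peaks are only about 1 kb apart.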

How the data were processed

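ChIP-seq of Su(var)3-7-GFP embryos was given as peak lists on dm6. Per the deposited inventory texts, the authors listed regions for each replicate and for the 3 pooled, each with 1 control file, and derived the thresholded list by the irreproducible discovery rate. No label or header names the aligner, the caller, their versions or the threshold. The deposited signal values (column 7) are on a scale that is not stated; the deposited score in column 9 is tied for 3796 of the 4055 peaks and for all 7 leads, so it could not rank them. Signals ranked regions within a list, and replicates were compared by rank or after division by the list median.

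The members and lists were chosen with earlier results of these data known. Start sites came from Ensembl release 115 (BDGP6.54; 13968 protein-coding genes), mobile elements and sequence from RefSeq. A replicate supported a summit with 1 of its strongest 4055 regions within 200 bp, the strongest one being taken. No test was made. Named genes were the 7, their neighbours with thresholded start summits, the gene of each likest peak and the peaks just outside the choice; ush was also named for its count after its values were seen. Motifs and 6-letter words were searched within 100 bp on both strands, and copies with BLAST+ 2.17.0 (word size 11). Distances to start sites were tested on simulated data. Python 3.11.15, NumPy 2.4.6, pandas 2.3.3 and matplotlib 3.10.9 were used. The dm3 lists were not used here.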

Additional observations from a re-analysis of the deposited data

How the results depend on the processing

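Windows of 5, 10 and 20 kb gave 26, 29 and 35 thresholded summits in place of 31, 1 summit per interval gave 30, and the stronger part of the list, ranks 1 to 2027, gave 15. Full replicate support covered 16 summits with a match within 100 bp, 20 within 500 bp, 29 when any listed region counted and 20 to 24 with 1 replicate left out, against 19. The median over the 7 leads of their mean relative signal was 27.9, and 26.0 to 30.8 with 1 replicate left out. With the median of the strongest regions as divisor it was 9.35, and by gene that divisor gave 7.57 to 14.2. Matching within 100 or 500 bp, or to the nearest summit, left the median of the means at 27.9. Within replicates 1, 2 and 3 the medians of the 7 leads were 25.9, 32.2 and 28.9 (SD of these 3 medians 3.18, n = 3). Each other ordering kept 5 of 7 places; column 8 holds 1 value and column 9 is tied, so neither could order the leads. Own start peaks were at 5 of 7 genes, lncRNA:CR31840 included, 3 when only ranks 1 to 2027 counted and 6 with any pooled region. With a limit of 1000 bp, 4 rather than 6 lead summits were distal and outside exons. Motif hits numbered 4, against 1 within 50 bp and 5 within 150 bp. The word GCCACA was in 5 leads, in 1 within 50 bp (4.49% of other distal windows) and in 5 within 150 bp (15.8%). G+C was lower at the summit in 6 leads, 6 with a core of 30 bp and 7 with 75 bp. The word and G+C results, and their alternatives, were chosen after seeing the data. No paired analysis was possible because there is 1 group. Depth is unknown, so how it limits the weaker summits could not be assessed.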

Other observations

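The share of other distal summits with the word GCCACA did not change steadily with rank. It was highest in the strongest class, which held few summits, and lowest in the class after it. Among the other distal summits the word was found in 5 of 30 (16.7%) ranked 1 to 100 and in 8.24% of 170 ranked 101 to 500. Further down it was found in 9.53% of 745 ranked 501 to 2027 and in 10.5% of 1014 ranked 2028 to 4055. At start-site summits the shares were 7.94%, 10%, 11.1% and 11.1% of 63, 230, 782 and 1014. These are values with no test.

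Lead peaks had small listed neighbours about 190 to 200 bp from the summit at Lk6 and lncRNA:CR31840 and at none of the other 5 genes in a range of 100 to 300 bp. At Lk6 they appeared in replicates 1 and 3, at 189 and 191 bp, and not in the pooled list. At lncRNA:CR31840 they were in the pooled list at 201 bp (signal 178) and in replicates 1 and 2 at 202 and 184 bp. Such spacing was not particular to leads. Summits elsewhere in these windows were listed about 200 bp apart too. Examples in the pooled list were 11764391 and 11764597 at the outer Lk6 start, 16224506 and 16224710 near tara, and 13044908 and 13045109 near CG13323.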
